A study of Mus musculus with 59 samples.

Results

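The genes described here are the 5 perilipins, Plin1 to Plin5, and the 3 CIDE genes, Cidea, Cideb and Cidec, which together encode the best known proteins of the lipid droplet surface. They were picked by their symbols, with earlier results of these data known, and are 8 of the 55341 genes listed in each of 3 tables of read counts from mouse brown adipose tissue (BAT). Every one of the 8 was counted often enough to be tested in each table.

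Triglycerides of the adipocyte are stored in lipid droplets, whose surface is coated with perilipins. These proteins set how easily lipases reach the stored fat: in fat cells Plin1 holds the lipase activator Abhd5 until adrenergic signalling releases it. CIDE proteins gather where droplets touch and let lipid pass from the smaller droplet to the larger one, so that they favour few large droplets. In brown fat the droplets are many and small, and fatty acids released from them feed mitochondrial heat production.

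RNA of the BAT of 59 male C57BL/6J mice aged 8 to 12 weeks was sequenced, 1 library per mouse, in a search for genes that respond to thyroid hormone (TH) and for their part under metabolic stress. In the TH experiment (30 mice), all mice were made hypothyroid with PTU, which blocks hormone synthesis. Wild-type (WT) mice were left as controls (WT PTU, 4 mice) or taken 3, 6, 12 or 24 h after an injection of TH (4 mice each), and BATKO mice were left as controls (BATKO PTU, 5 mice) or taken 24 h after TH (5 mice). In the temperature experiment (16 mice), control (CTRL) and BATKO mice were kept at 4 °C (3 CTRL, 4 BATKO) or 30 °C (4 CTRL, 5 BATKO), and the name of that table carries 24 h. In the diet experiment (13 mice), CTRL and BATKO mice received a high-fat diet (HFD; 4 CTRL, 3 BATKO) or chow (4 CTRL, 2 BATKO), and the name of that table carries 3.5 d. The sources used here do not describe the gene deleted in BATKO mice or the promoter that drives the deletion, so the deletion could not be checked in the counts.

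The libraries held 7612059 to 18073627 counted reads, of which 39.2 to 55.7% belonged to the mitochondrial genome. The BATKO libraries of the TH experiment were deeper (13593987 to 18073627 reads) than the WT ones (7805938 to 14615534). Expression is given as normalised read counts scaled to a common library size by the TMM method within each table (CPM), and the 3 tables were normalised separately, so levels of different tables are set side by side only as a description. All 7 brown adipocyte markers checked passed the count filter in every table, while no hepatocyte marker (3 checked) and no lymphocyte marker (4 checked) did. The summed level of 5 skeletal muscle markers ranged from 0.639 to 7584 CPM, and 11 mice of 7 groups exceeded 1000 CPM. Calls of the 8 genes that change without these 11 mice are given both ways.

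The positions of the genes are given on the GRCm38 genome. Plin4 (chr17:56100591-56109803) and Plin5 (chr17:56111601-56117596) are direct neighbours on the same strand, 1797 bases apart, and Plin3 (chr17:56277476-56292873) is on the same chromosome. The others are Plin1 (chr7:79720218-79732903), Plin2 (chr4:86648386-86670060), Cideb (chr14:55754050-55758458) and Cidec (chr6:113424634-113435760). All 7 are on the minus strand. Cideb shares 1136 of its exon bases (76.3%) with Nop9 on the opposite strand. The strand setting of the counting is not given in the sources used here. How reads of the shared bases were counted is therefore not known, and Cideb is reported as uncertain.

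The promoters of the genes with the largest changes are shown to give the sequence context of the start sites from which these RNAs are annotated. Plin2 and Plin5 had the largest rises in the cold, and Plin4 and Cidec the largest falls after TH. Each line holds the first 200 bases of a 300-base promoter window, 5′ to 3′ on the gene's strand, from RefSeq on GRCm38.p6. For Plin2, Plin4 and Cidec the bases printed stop short of the gene position given above, and the bases between were not searched. Capitals mark AGGTCA, the half-site bound by many nuclear receptors, and CCAAT, a common promoter box, on either strand (TGACCT and ATTGG when on the opposite strand).
Plin2 (chr4:86670110-86670309, minus strand): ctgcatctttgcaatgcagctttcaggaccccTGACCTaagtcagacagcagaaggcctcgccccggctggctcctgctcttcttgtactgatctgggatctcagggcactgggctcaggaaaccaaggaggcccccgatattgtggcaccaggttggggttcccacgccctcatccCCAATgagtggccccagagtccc
Plin5 (chr17:56117599-56117798, minus strand): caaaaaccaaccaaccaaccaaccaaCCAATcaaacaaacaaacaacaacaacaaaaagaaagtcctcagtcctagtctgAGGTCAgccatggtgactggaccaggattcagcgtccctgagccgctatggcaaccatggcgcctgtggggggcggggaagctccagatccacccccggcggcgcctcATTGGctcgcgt
Plin4 (chr17:56109833-56110032, minus strand): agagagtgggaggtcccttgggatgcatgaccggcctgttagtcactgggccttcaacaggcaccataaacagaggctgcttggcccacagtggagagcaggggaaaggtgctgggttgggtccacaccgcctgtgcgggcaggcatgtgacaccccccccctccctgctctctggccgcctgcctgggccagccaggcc
Cidec (chr6:113435811-113436010, minus strand): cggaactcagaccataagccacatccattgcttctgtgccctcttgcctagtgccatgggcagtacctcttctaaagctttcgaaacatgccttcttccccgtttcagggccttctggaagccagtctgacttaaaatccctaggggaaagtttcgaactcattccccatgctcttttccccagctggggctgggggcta
For 7 of the 8 genes 9 such windows were read, and that of Cidea was not analysed here. AGGTCA was found in 2 of the 9 (Plin2 at bases 33 to 38 on the opposite strand, Plin5 at 81 to 86), against 11.4% of the 32851 promoter windows searched. CCAAT was found in 3 of the 9 (Plin2, Plin5 and Plin3), against 28.4%. The direct repeats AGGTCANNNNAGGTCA, the classical arrangement for TH receptors, and AGGTCANAGGTCA, that of PPAR receptors, were found in 0 of the 9 and in 0.0122% and 0.0244% of all windows, and the cyclic AMP element TGACGTCA in 0 of the 9 and 0.828%. The windows of Plin4 and Cidec printed above hold none of these letters. These counts describe the windows, and binding was not measured here.

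Per length, Cidea (chr18:67343604-67367785, plus strand) was the most abundant of the 8 transcripts. In hypothyroid WT mice, the level per kilobase of exon was 1046 ± 121 CPM for Cidea, 455 ± 48.6 for Cidec, 239.8 ± 26.2 for Plin1 and 125 ± 25.6 for Plin2 (SD, n = 4). These 4 levels did not overlap between genes in any of the 4 mice. Plin5 (16.6 ± 0.334), Plin4 (16.4 ± 1.47) and Plin3 (13.9 ± 0.394) followed close together, and Plin4 overlapped with Plin5 and with Plin3. Cideb, a protein best known from hepatocytes, was lowest, at 1.66 ± 0.231 CPM per kilobase. Cidea had the highest mean in all 15 groups by exon length, and in 13 of 15 by coding or longest-transcript length, the exceptions being BATKO mice on HFD and on chow, where Plin1 was higher. Whether Cidec or Plin1 came second also depended on the length measure.

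In WT mice, TH lowered 4 of the 8 genes by 24 h and raised 1. Cidec fell most (5.06-fold), followed by Plin4 (3.65-fold), Plin1 (2.15-fold) and Cidea (1.81-fold), and Cideb rose 2.79-fold from a very low level. Plin2, Plin3 and Plin5 did not pass the test at 24 h, but Plin2 was lower and Plin5 higher at 6 h. At 3, 6, 12 and 24 h, 0, 5, 5 and 5 of the 8 genes passed the test, while the shares among all 13003 genes tested were 9.19%, 23%, 25.7% and 32.7%. At 24 h, 17.2% of all genes were higher and 15.5% lower, against 1 and 4 of the 8. The median log2 fold change of the 8 genes at 24 h was -0.51, and that of all genes was 0.01. The 4 time points share the same 4 control mice and are not independent of each other.

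Plin1, the main droplet coat of fat cells, fell in steps. It was at 1032, 1048, 1086 and 1295 CPM in the 4 hypothyroid mice. The 3 h mice had 744, 1025, 1070.0 and 1147 CPM, the 6 h mice 865, 896, 912 and 914, the 12 h mice 526, 560.3, 611 and 623 and the 24 h mice 478, 499, 518 and 583. From 6 h on, every treated mouse was below every control. The change was -0.33 ± 0.11 (SE) on the log2 scale at 6 h (edgeR's adjusted p = 0.0411), -0.93 ± 0.12 (SE) at 12 h (adjusted p = 3.79e-06) and -1.10 ± 0.12 (SE) at 24 h (adjusted p = 3.46e-07). The 6 h call is the least secure, since 7 of the 8 fits that each left out 1 mouse lost it (adjusted p = 0.0515 to 0.158), as did the fit without the mice above 1000 CPM of muscle markers (log2 fold change -0.33, adjusted p = 0.0870). Between 6 and 12 h the fall was itself called (log2 fold change -0.60 ± 0.11 (SE), adjusted p = 0.00770), where 2.95% of all genes were called. In edgeR at the usual settings Plin1 was the only one of the 8 genes called for this step. DESeq2 also called Cidec (adjusted p = 0.0434). In bulk tissue, less RNA per cell and fewer cells of a type cannot be told apart, here or for any of the changes that follow.

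Plin4, a perilipin with a long repeat region found mainly in fat and muscle, had larger fold changes than Plin1 at 6, 12 and 24 h. The control mice were at 82.4, 96.4, 100.2 and 100.3 CPM, the 3 h mice at 64.5, 87.2, 90.5 and 100.3, the 6 h mice at 40.8, 41.2, 53.0 and 54.4, the 12 h mice at 16.4, 26.8, 37.8 and 38.8 and the 24 h mice at 13.9, 23.6, 29.7 and 36.6. Control and treated mice were apart from 6 h on. The log2 fold change was -1.02 ± 0.24 (SE) at 6 h (edgeR's adjusted p = 0.00360), -1.66 ± 0.24 (SE) at 12 h (adjusted p = 2.87e-05) and -1.87 ± 0.24 (SE) at 24 h (adjusted p = 5.58e-06). Its neighbour Plin5 was not called lower than in controls at any of these times.

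Plin2 and Plin5 each moved one way and then back. Plin2, the perilipin made by most cell types as they load fat, was at 375, 392, 416 and 571 CPM in controls. The 3 h mice had 255, 369, 377 and 442 CPM, the 6 h mice 279, 282, 294 and 304, the 12 h mice 269, 309.6, 315 and 316 and the 24 h mice 370.4, 448, 520.2 and 609. It was lower at 6 h (log2 fold change -0.62 ± 0.16 (SE), adjusted p = 0.00972) and at 12 h (log2 fold change -0.53 ± 0.16 (SE), adjusted p = 0.0214), when no treated mouse reached the controls. With 1 mouse left out, 1 of 8 fits lost the 6 h call (adjusted p = 0.0508) and 2 of 8 the 12 h call (adjusted p = 0.0638 and 0.106), which the fit of all 30 mice also lost (adjusted p = 0.0713). At 24 h it was back among the controls (log2 fold change 0.15 ± 0.16 (SE), adjusted p = 0.515), and the rise from 12 to 24 h was called (log2 fold change 0.68 ± 0.16 (SE), adjusted p = 0.0118). Plin5, which ties droplets to mitochondria in oxidative tissues, went up first: it was at 34.2, 34.4, 34.4 and 35.7 CPM in controls, while the 3 h mice had 40.8, 42.2, 42.5 and 49.6, the 6 h mice 40.2, 48.2, 48.3 and 52.5, the 12 h mice 36.5, 38.1, 40.0 and 46.3 and the 24 h mice 26.5, 28.4, 30.4 and 37.9. All treated mice at 3, 6 and 12 h exceeded all controls, but only the 6 h rise was called (log2 fold change 0.43 ± 0.11 (SE), adjusted p = 0.00778), while the 3 h value missed the threshold (log2 fold change 0.32 ± 0.11 (SE), adjusted p = 0.0815). From 12 to 24 h Plin5 fell (log2 fold change -0.39 ± 0.11 (SE), adjusted p = 0.0288), a call that 5 of 8 fits with 1 mouse left out lost, and so did the fit without the mice above 1000 CPM of muscle markers (log2 fold change -0.32, adjusted p = 0.124). Plin3, a widely expressed perilipin that moves from the cytosol to newly formed droplets, was called at none of the 4 times. It was at 50.9, 52.3, 52.6 and 54.5 CPM in controls and 56.9, 64.4, 69.0 and 79.8 CPM in the 6 h mice, all above the controls, where its value missed the threshold (log2 fold change 0.35 ± 0.14 (SE), adjusted p = 0.0814), and at 24 h its log2 fold change was 0.00.

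The brown fat CIDE genes fell late. Cidec, also called Fsp27, stood at 765, 781, 872 and 960.0 CPM in controls. The 3 h mice had 586, 703, 874 and 877 CPM, the 6 h mice 730.3, 814, 924 and 1075, the 12 h mice 345, 436, 658 and 750.0 and the 24 h mice 111, 166, 176 and 215. The 6 h mice were mixed with the controls, the 12 h mice were all below them but spread widely, and the 24 h mice were all far below. Its log2 fold change was 0.05 ± 0.21 (SE) at 6 h, -0.62 ± 0.21 (SE) at 12 h (edgeR's adjusted p = 0.0337, lost in 4 of 8 fits with 1 mouse left out) and -2.34 ± 0.22 (SE) at 24 h (adjusted p = 8.13e-08). Most of the fall came after 12 h (log2 fold change -1.72 ± 0.22 (SE), adjusted p = 5.27e-05 for 24 against 12 h). Cidea, the CIDE gene most typical of brown adipocytes, had 1032, 1069, 1276 and 1289 CPM in controls, with the 12 h mice at 801, 928, 1003 and 1112 and the 24 h mice at 593, 610.1, 673 and 704. Only the 24 h mice were apart from controls (log2 fold change -0.86 ± 0.11 (SE), adjusted p = 7.77e-06), and the step from 12 to 24 h was called (log2 fold change -0.59 ± 0.11 (SE), adjusted p = 0.00246). Over that step, 4 of the 8 genes were called (Plin2 up; Plin5, Cidea and Cidec down) against 11.4% of all genes.

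Cideb went the other way at very low counts (14 to 112 reads per mouse). Control mice had 1.96, 2.55, 2.61 and 2.74 CPM, the 3 h mice 0.885, 3.73, 4.73 and 5.04, the 6 h mice 4.34, 4.68, 5.36 and 7.78, the 12 h mice 6.10, 7.90, 8.68 and 8.69 and the 24 h mice 4.41, 5.95, 7.29 and 9.81. All mice from 6 h on were above all controls, with log2 fold changes of 1.17 ± 0.34 (SE) (edgeR's adjusted p = 0.0173), 1.68 ± 0.34 (SE) (adjusted p = 0.000905) and 1.48 ± 0.34 (SE) (adjusted p = 0.00201). The 6 h call was lost in 2 of 8 fits with 1 mouse left out (adjusted p = 0.0502 and 0.0753). For Nop9, the gene on the other strand, the log2 fold changes were 0.41 (adjusted p = 0.102), 0.03 (adjusted p = 0.958) and 0.50 (adjusted p = 0.0391).

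**Figure D1:**
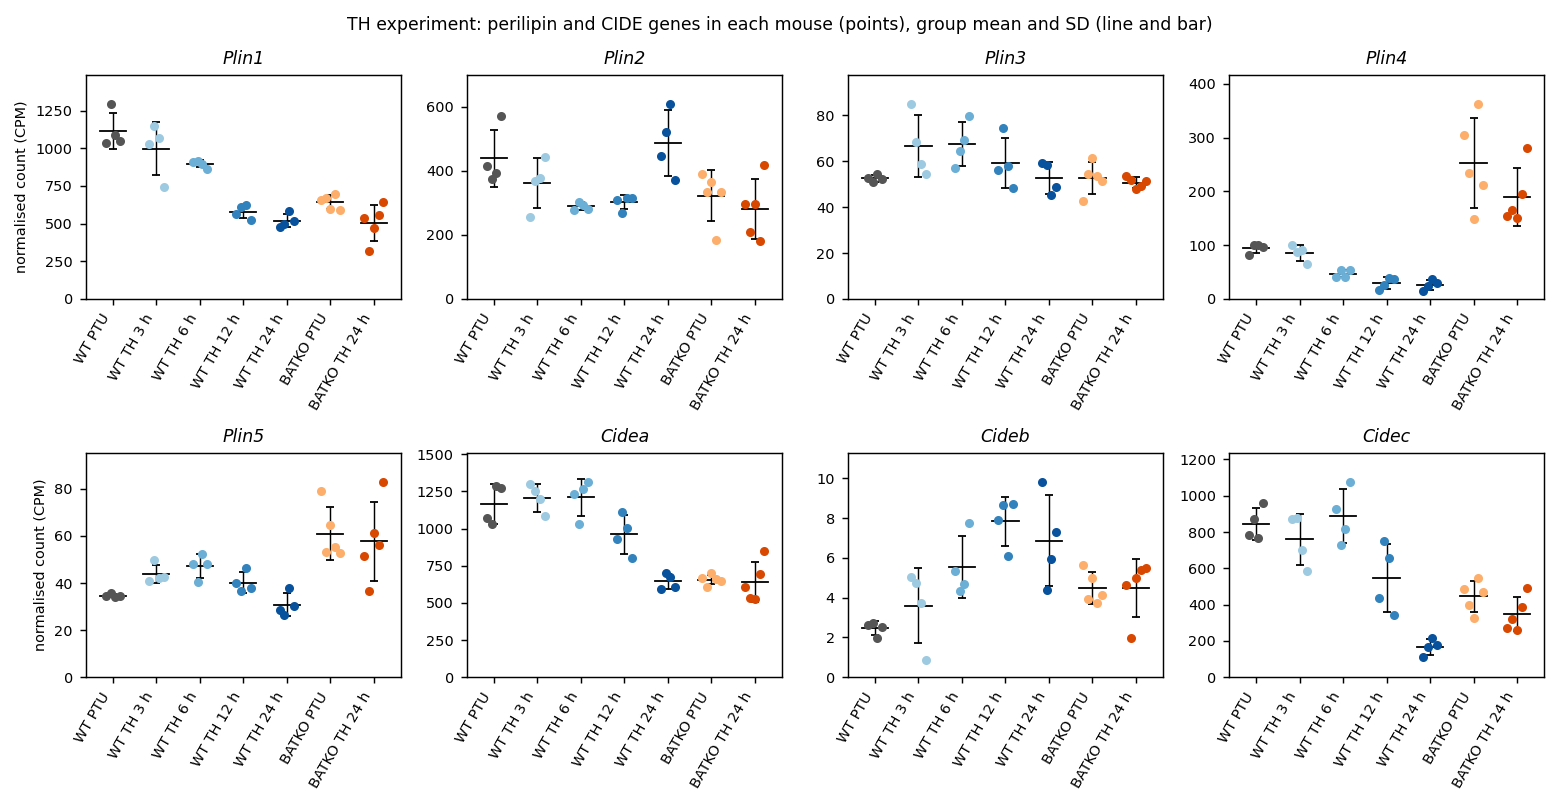
Normalised counts (CPM, linear axis from 0) of the 8 genes in each mouse of the TH experiment, 1 panel per gene. Points are mice, horizontal lines group means and bars SD (n = 4 for WT groups, n = 5 for BATKO groups). The WT means of Plin1, Plin4, Cidea and Cidec are lowest at 24 h, those of Cidea and Cidec after staying near the controls up to 6 h, while the BATKO groups before and after TH overlap for all 8 genes.

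At 3 h, both edgeR and DESeq2 called 0 of the 8 genes, and Plin3 and Plin5 (2 of 8) had an unadjusted p under 0.05, against 3244 of all 13003 genes. From 3 to 6 h, edgeR called 0 of the 8 and 2.8% of all genes. Plin4 (1 of 8) was at an unadjusted p under 0.05 (log2 fold change -0.85 ± 0.24 (SE), adjusted p = 0.0550), against 2132 of all 13003 genes. DESeq2 called Plin4 for this step. Treated and control mice did not overlap for 1, 6, 6 and 5 of the 8 genes (3, 6, 12 and 24 h after TH), against 16.2%, 26.2%, 26.1% and 29.1% of all genes.

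Other adipocyte genes moved in the same samples at 24 h. Of 4 markers of adipocytes in general, 3 were lower (Adipoq, Fabp4 and Lpl; Adipoq log2 fold change -2.14 ± 0.13 (SE), adjusted p = 1.18e-10), and their summed level was 12797 to 16311 CPM in controls and 7081 to 7594 CPM at 24 h. Of 7 brown adipocyte markers, 2 were higher (Ucp1 and Cox7a1; Ucp1 log2 fold change 0.93 ± 0.21 (SE), adjusted p = 0.00164) and 2 lower (Elovl3 and Adrb3), with sums of 5661 to 7639.9 CPM and 8224 to 16111 CPM. Every one of these markers was above 0 in all of these mice, and their part in the changes of the droplet genes was not tested. Skeletal muscle markers (0 of 5 called) summed to 58.4 to 591 CPM and 239.5 to 1018 CPM, and without the TH mice above 1000 CPM the count at 24 h was still 1 higher and 4 lower. Of the other markers at 24 h, 1 of 5 for macrophages was higher, 1 of 4 for endothelium was higher and 1 lower, 1 of 4 for fibroblasts and 2 of 3 tested for white adipocytes were lower, with Lep higher (log2 fold change 3.11), and 0 of 4 for red cells were called by edgeR.

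In BATKO mice, these changes were not detected. None of the 8 genes was called 24 h after TH by edgeR or DESeq2, and neither was any of the 14178 genes tested (0%), although 673 genes, of which Plin1 was 1, had an unadjusted p under 0.05. Cidec was at 327, 399, 472, 484 and 546 CPM in BATKO PTU mice and 261, 274, 322, 387 and 493 CPM after TH (log2 fold change -0.36 ± 0.20 (SE), adjusted p = 0.963). Plin4 went from 149, 213, 234, 306 and 363 CPM to 152, 154, 165, 195 and 281 CPM (log2 fold change -0.42 ± 0.23 (SE), adjusted p = 0.963). For both genes the mice before and after TH overlapped. Plin1 was at 591, 595, 658, 672 and 694 CPM before and 316, 472, 535, 559 and 642 CPM after TH (log2 fold change -0.35 ± 0.13 (SE), adjusted p = 0.963), so that 1 treated mouse lay within the range before TH and the other 4 below it. The groups overlapped for each of the 8 genes, and 0.719% of all genes did not overlap. The 95% intervals of the log2 change still allowed falls, from -0.89 to 0.05 for Plin4, -0.76 to 0.04 for Cidec, -0.61 to -0.08 for Plin1 and -0.27 to 0.20 for Cidea.

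The difference between the BATKO and WT responses was tested as an interaction, for which 12.3% of all genes were called. It was called for the same 5 genes as the WT response at 24 h. The BATKO response was higher than the WT response by 1.98 ± 0.30 (SE) on the log2 scale for Cidec (edgeR's adjusted p = 7.77e-05), 1.44 ± 0.35 (SE) for Plin4 (adjusted p = 0.00711), 0.82 ± 0.17 (SE) for Cidea (adjusted p = 0.00226) and 0.75 ± 0.19 (SE) for Plin1 (adjusted p = 0.0102). For Cideb the difference was -1.49 ± 0.44 (SE) (adjusted p = 0.0243), and that call was lost in 1 of 18 fits with 1 mouse left out. The interaction uses the same WT mice as the WT response and is no second measurement of it.

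Hypothyroid BATKO and WT mice already differed before any hormone was given. Of the 8 genes, 6 were called, against 70.3% of all genes, so that the share is close to the background. Plin4 stood out upwards, at 149, 213, 234, 306 and 363 CPM in the 5 BATKO PTU mice against 82.4, 96.4, 100.2 and 100.3 in the 4 WT PTU mice (log2 fold change 1.42 ± 0.25 (SE), adjusted p = 1.37e-05). Plin5 was also higher (52.7, 53.4, 55.2, 64.7 and 79.1 against 34.2, 34.4, 34.4 and 35.7 CPM; log2 fold change 0.82 ± 0.16 (SE), adjusted p = 3.27e-05), as was Cideb (log2 fold change 0.87 ± 0.33 (SE), adjusted p = 0.0188), with Nop9 at 0.75 (adjusted p = 0.000651). Lower in BATKO mice were Cidea (609, 649, 659, 671 and 699 against 1032, 1069, 1276 and 1289 CPM; log2 fold change -0.83 ± 0.12 (SE), adjusted p = 5.67e-07), Cidec (log2 fold change -0.92 ± 0.21 (SE), adjusted p = 0.000267) and Plin1 (591, 595, 658, 672 and 694 against 1032, 1048, 1086 and 1295 CPM; log2 fold change -0.80 ± 0.14 (SE), adjusted p = 7.15e-06). Plin2 missed the threshold (log2 fold change -0.44 ± 0.20 (SE), adjusted p = 0.0508) but passed it in 4 of 9 fits with 1 mouse left out (adjusted p = 0.0316 to 0.0447) and with no filter on low counts (adjusted p = 0.0342), and the Cideb call was lost without WT PTU mouse 4 (adjusted p = 0.0669). In each of the 6, no BATKO mouse overlapped a WT mouse, and 59.8% of all genes were apart in this way. Cell type markers differed as well: 5 of 7 brown adipocyte markers were lower and 1 higher in BATKO mice (sums of 1481 to 2295 CPM against 5661 to 7639.9 CPM), 3 of 4 adipocyte markers were lower and 1 higher (10469.7 to 13312 CPM against 12797 to 16311 CPM), 4 of 4 endothelial markers were higher (389 to 443 CPM against 305 to 326 CPM), and of 4 red cell markers 3 were higher and 1 lower (205 to 564 CPM against 179 to 278 CPM). Of 3 white adipocyte markers tested 2 were lower and 1 higher (28.9 to 52.8 CPM against 126 to 136 CPM), of 4 fibroblast markers 2 were lower and 1 higher (156 to 216 CPM against 178 to 269 CPM), and 1 of 5 macrophage markers was lower (13.1 to 21.0 CPM against 20.1 to 31.6 CPM). The part of these markers in the differences was not tested. Since most genes differed and the BATKO libraries were deeper, genotype and other differences between the libraries cannot be told apart. For Cidea the BATKO PTU mice lay among the WT mice taken 24 h after TH (593 to 704 CPM), for Plin1 just above them (478 to 583 CPM) and for Plin4 far above them. For Cidec they also lay well above them (327 to 546 CPM against 111 to 215 CPM).

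The cold raised 6 of the 8 genes in CTRL mice, and Plin2 and Plin5 by far the most. Plin2 was 8.38-fold higher at 4 °C than at 30 °C and Plin5 4.85-fold, followed by Cidea (2.50-fold), Cidec (2.23-fold), Plin3 (1.88-fold) and Plin1 (1.67-fold). Plin4 was the one perilipin not called. Of all 13267 genes tested, 49.1% were called in either direction and 26.5% as higher, against 6 of the 8. The median log2 fold change of the 8 genes was 1.03, and that of all genes was -0.01.

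Plin2 was at 74.3, 142, 143 and 222 CPM in the 4 CTRL mice at 30 °C and 949.8, 1155 and 1549 in the 3 at 4 °C (log2 fold change 3.07 ± 0.36 (SE), adjusted p = 3.88e-06). The lowest cold mouse was far above the highest warm mouse. Plin5 was at 14.9, 17.2, 20.7 and 31.6 CPM at 30 °C and 93.0, 97.0 and 116 at 4 °C (log2 fold change 2.28 ± 0.20 (SE), adjusted p = 2.36e-07), again with a wide gap. Cidea went from 235, 458, 503 and 616 CPM to 1107, 1135 and 1149.7 (log2 fold change 1.32 ± 0.23 (SE), adjusted p = 0.000206). Its cold mice were nearly equal while the warm mice varied, with 1 mouse well below the other warm mice. Cidec had 293, 328, 396 and 414 CPM at 30 °C and 668, 839.6 and 884 at 4 °C (log2 fold change 1.16 ± 0.20 (SE), adjusted p = 0.000138), and Plin1 716, 725, 772 and 1003 and 1259, 1363 and 1396 (log2 fold change 0.74 ± 0.15 (SE), adjusted p = 0.000535). Plin3 stood at 47.0, 53.2, 57.5 and 58.1 and 83.3, 110.2 and 111 CPM (log2 fold change 0.91 ± 0.18 (SE), adjusted p = 0.000498). In each of these genes all cold mice were above all warm mice, and this held for 7 of the 8 genes, the seventh being Cideb (log2 fold change 0.68 ± 0.33 (SE), adjusted p = 0.0996), against 50.4% of all genes. Plin4 overlapped, with 113, 148, 207 and 232 CPM at 30 °C and 97.0, 128 and 198 at 4 °C (log2 fold change -0.31 ± 0.30 (SE), adjusted p = 0.396).

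**Figure D2:**
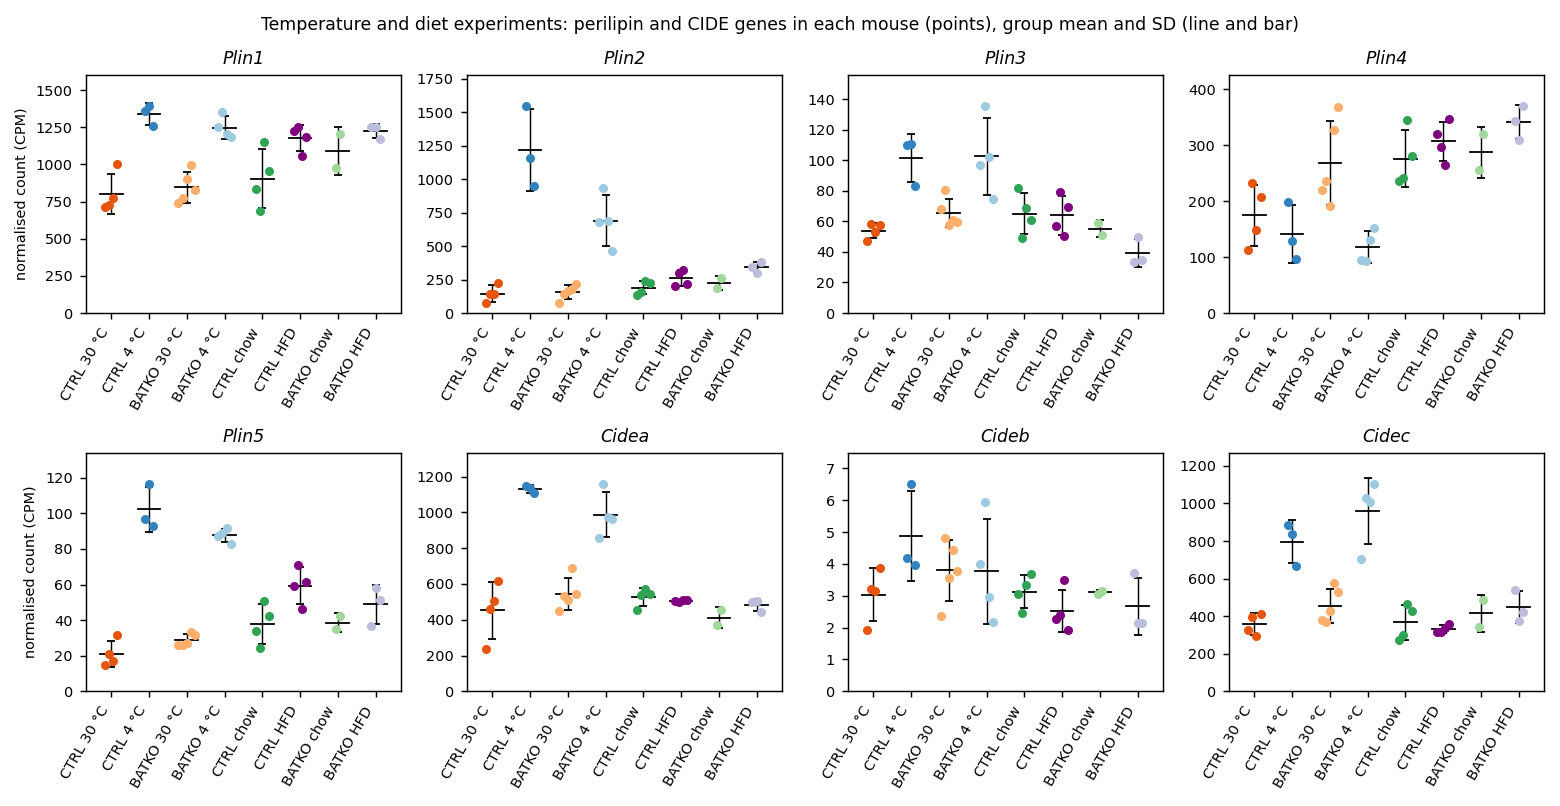
Normalised counts (CPM, linear axis from 0) of the 8 genes in each mouse of the temperature experiment (left groups) and the diet experiment (right groups), which were normalised separately. Points are mice, horizontal lines group means and bars SD (n = 2 to 5 mice per group). As a ratio of levels, Plin2 and Plin5 show the widest gaps between 30 and 4 °C in both genotypes. Plin4 is the one perilipin that is not higher at 4 °C, and the diet groups overlap for most genes.

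BATKO mice also raised these 6 genes in the cold, and in them Plin4 was lower. Plin2 was at 77.9, 140.2, 167, 181 and 217 CPM at 30 °C and 462, 682, 687 and 932 at 4 °C, 4.40-fold higher (log2 fold change 2.14 ± 0.31 (SE), adjusted p = 5.54e-05). Plin5 went from 26.2, 26.3, 26.9, 31.6 and 33.3 to 82.9, 87.2, 88.8 and 91.7 CPM, 3.04-fold higher (log2 fold change 1.60 ± 0.17 (SE), adjusted p = 3.34e-06). Both were apart from the warm mice in every animal. Cidec went from 371, 381, 426, 529 and 575 to 704, 1007, 1029 and 1104 CPM (log2 fold change 1.07 ± 0.17 (SE), adjusted p = 0.000138). Plin4 was at 191, 219.5, 235, 326 and 368 CPM at 30 °C and 92.7, 95.3, 130.4 and 152 at 4 °C, 2.28-fold lower (log2 fold change -1.19 ± 0.27 (SE), adjusted p = 0.00208), with no overlap. Cidea (log2 fold change 0.86 ± 0.20 (SE), adjusted p = 0.00326), Plin3 (log2 fold change 0.65 ± 0.16 (SE), adjusted p = 0.00367) and Plin1 (log2 fold change 0.56 ± 0.13 (SE), adjusted p = 0.00251) were higher by less. In all, 7 of 8 were called and 6 were higher, against 40.3% and 21.4% of all genes, and 6 were apart, against 31.2%. The median log2 fold change was 0.75, and that of all genes was -0.02.

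Leaving out the mice rich in muscle markers changed the BATKO count but not the CTRL one. Skeletal muscle markers summed to 0.639 to 4246 CPM in CTRL mice at 30 °C, 129 to 566 CPM at 4 °C, 0.870 to 7584 CPM in BATKO mice at 30 °C and 5.08 to 1528 CPM at 4 °C, and 0 of the 5 markers were called in either genotype. Without the mice above 1000 CPM the CTRL count stayed at 6 and the BATKO count fell from 7 to 3, with Plin2, Plin5 and Cidec still called. Left out of the BATKO groups were mice 8 and 11 at 4 °C and mice 13 and 17 at 30 °C. Whether the lost calls follow from muscle or from the fewer mice was not tested. That fit, with fewer mice, gave Plin4 (log2 fold change -1.01, adjusted p = 0.0777), Cidea (log2 fold change 0.66, adjusted p = 0.164), Plin1 (log2 fold change 0.45, adjusted p = 0.161) and Plin3 (log2 fold change 0.38, adjusted p = 0.261) in edgeR. All 7 brown adipocyte markers were higher in the cold in both genotypes (Ucp1 log2 fold change 4.40 ± 0.52 (SE), adjusted p = 4.56e-06 in CTRL mice), from a sum of 335 to 1727 CPM to 15859.9 to 19388 CPM in CTRL mice. Of 4 general adipocyte markers Fabp4 and Lpl were higher in both genotypes and Adipoq was lower in CTRL mice (sums 6307 to 7548 CPM and 15037 to 22309.5 CPM in CTRL mice, 5794 to 7188 CPM and 15705 to 17844 CPM in BATKO mice). Of 4 red cell markers, 2 were also higher in both genotypes (sums 175 to 328 CPM and 756 to 1688 CPM in CTRL mice), and the part of these markers in the result was not tested. In CTRL mice 0 of 5 macrophage markers were called by edgeR, 1 of 4 endothelial markers was higher, and 2 of 4 fibroblast markers and 1 of 3 white adipocyte markers were lower. In BATKO mice the macrophage marker Mrc1 was higher, and Cdh5 of the endothelium, Lum of fibroblasts and Lep of white adipocytes were lower.

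Whether the genotypes differed was tested directly. At 4 °C, edgeR and DESeq2 called 0 of the 8 genes. Of the 8, 1 had an unadjusted p under 0.05, namely Plin2 (log2 fold change -0.82 ± 0.34 (SE), adjusted p = 0.233), against 2194 of all 13267 genes. Plin2 and Plin5 were nevertheless lower in every BATKO mouse than in every CTRL mouse at 4 °C, with Plin5 at log2 fold change -0.22 ± 0.19 (SE), adjusted p = 0.614. That is 2 of the 8 genes, against 13.2% of all genes apart and 2.16% called by edgeR. At 30 °C both tools called 0 of the 8, where edgeR called 0.00754% of all genes. Plin4 and Plin5 (2 of 8) were at an unadjusted p under 0.05, against 1209 of all 13267 genes. The interaction of cold and genotype was called by both tools for 0 of the 8, while edgeR called it for 1.12% of all genes (149) and DESeq2 for 652 genes. Plin4 and Plin5 (2 of 8) had an unadjusted p under 0.05 for this interaction, against 2471 of all 13267 genes. The interval of the interaction was -1.90 to 0.04 on the log2 scale for Plin2, -1.22 to -0.13 for Plin5 and -1.70 to -0.05 for Plin4. Plin5 passed the threshold there when 1 CTRL mouse at 30 °C (number 22) was left out (adjusted p = 0.0373).

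**Figure D3:**
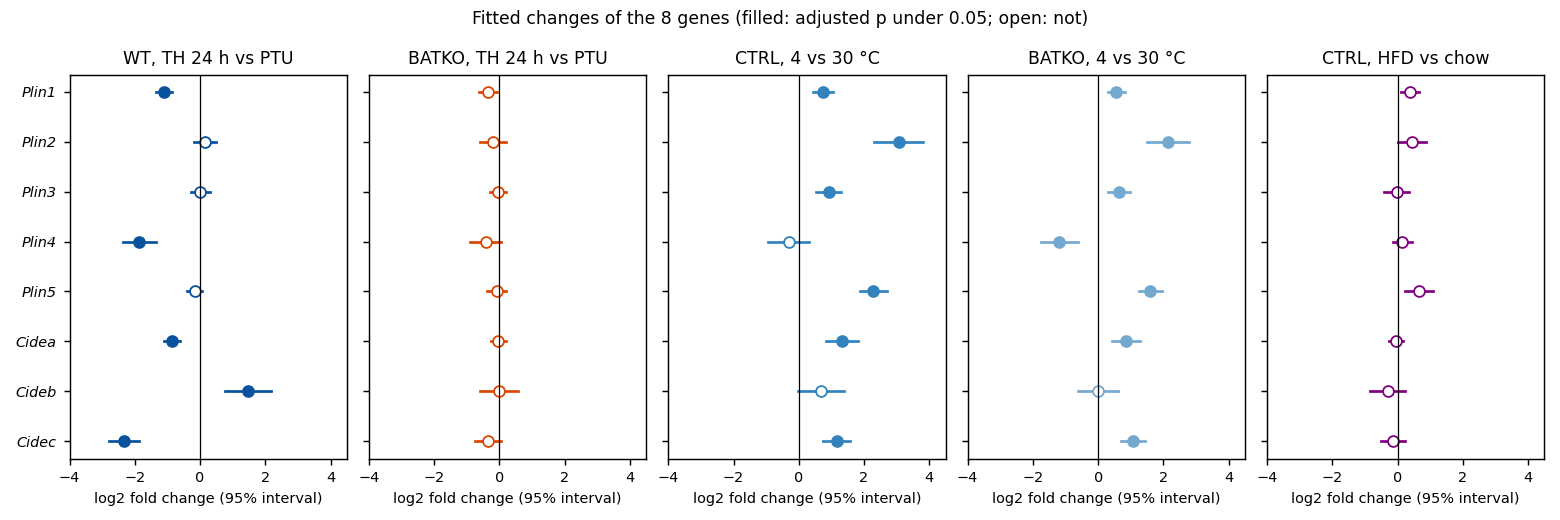
Log2 fold changes (points) with 95% intervals (lines) of the 8 genes in 5 comparisons, from edgeR; filled points passed an adjusted p of 0.05 and open points did not. Cidec, Plin4, Plin1 and Cidea lie below 0 after TH in WT mice and all but Plin4 of them lie above 0 in the cold, and in the BATKO TH panel every interval but that of Plin1 includes 0.

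On the high-fat diet no gene of the 8 passed the test in edgeR. In CTRL mice 0 of the 8 were called by edgeR and 1 by DESeq2 (Plin5), while edgeR called 3.94% of all 12932 genes tested and DESeq2 873 genes. Plin1, Plin2 and Plin5 (3 of 8) had an unadjusted p under 0.05, against 2802 of all 12932 genes. Plin5 came nearest, with 24.3, 33.7, 42.2 and 50.5 CPM on chow and 46.1, 59.1, 61.3 and 70.9 on HFD (log2 fold change 0.65 ± 0.20 (SE), adjusted p = 0.0877). Plin1 was next, with 685, 832, 954 and 1148 CPM on chow and 1055, 1186, 1226 and 1252 on HFD (log2 fold change 0.38 ± 0.14 (SE), adjusted p = 0.124). In both, the highest chow mouse (number 3) lay within the HFD range. That mouse is one of 2 CTRL chow mice above 1000 CPM of muscle markers (0.847 to 1958 CPM on chow, 0.762 to 497 CPM on HFD). Without the mice above that level Plin1 (log2 fold change 0.63, adjusted p = 0.0307) and Plin5 (log2 fold change 1.02, adjusted p = 0.0266) passed the threshold in edgeR, and the same 2 genes did without mouse 3 alone (adjusted p = 0.0389 and 0.0360). Cidea (log2 fold change -0.06 ± 0.10 (SE), adjusted p = 0.779) and Cidec (log2 fold change -0.15 ± 0.17 (SE), adjusted p = 0.665) did not pass, and without the mice rich in muscle markers Cidec was at 0.20.

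In BATKO mice, with 2 on chow and 3 on HFD, 0 of the 8 genes were called by either tool, while edgeR called 0.0696% of all genes (9) and DESeq2 226 genes. At an unadjusted p under 0.05 were 1 of the 8 and 1996 of all 12932 genes. Plin2 was at 188 and 263 CPM on chow and 300.5, 342 and 379 on HFD (log2 fold change 0.60 ± 0.26 (SE), adjusted p = 0.295), and Plin3 at 33.4, 34.6 and 49.7 CPM on HFD, below both chow mice (log2 fold change -0.49 ± 0.23 (SE), adjusted p = 0.330). These 2 genes were apart, Plin2 upwards and Plin3 downwards, against 36.4% of all genes. Between genotypes, both tools called 0 of the 8 on HFD (Plin3 and Cidec, 2 of 8, at an unadjusted p under 0.05) and on chow (Cidea, 1 of 8). Of all genes edgeR called 0% on either diet, with 691 and 1024 at an unadjusted p under 0.05 and 9 and 33 called by DESeq2. Plin3 on HFD had the lowest p, 33.4, 34.6 and 49.7 CPM in BATKO and 50.5, 57.3, 69.2 and 79.3 in CTRL mice (log2 fold change -0.70 ± 0.20 (SE), adjusted p = 0.884), which passed only when no filter on low counts was set (adjusted p = 0.0254). The interaction of diet and genotype was called for 0 of the 8 and 0% of all genes by both tools (0 of the 8 and 740 genes at an unadjusted p under 0.05).

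The mix of perilipins shifted with temperature and TH. At 30 °C Plin1 made up 64.8% ± 5.30 (SD, n = 4) of the summed perilipin level per exon length in CTRL mice and Plin2 14.9% ± 3.59 (SD, n = 4). At 4 °C the shares were 39.6% ± 4.43 and 46.7% ± 4.83 (SD, n = 3), so that Plin2 had the largest mean share. In CTRL mouse 5 at 4 °C, Plin1 and Plin2 were about level. In no mouse did the shares of Plin2 at 30 °C (9.87 to 18.4%) and 4 °C (43.3 to 52.3%) overlap. In BATKO mice Plin2 went from 14.4% ± 3.51 (SD, n = 5) to 34.9% ± 5.30 (SD, n = 4), and Plin4 from 15.1% ± 2.93 to 3.80% ± 1.38. After TH, the share of Plin2 in WT mice was 30.3% ± 5.36 in controls and 48.6% ± 4.41 at 24 h (SD, n = 4), while its own level did not pass the test, and that of Plin1 went from 58.3% ± 5.16 to 39.6% ± 3.47. In BATKO mice the share of Plin2 was 28.9% ± 6.67 before and 30.2% ± 5.23 after TH (SD, n = 5). Shares add up to a whole, so that one falls when another rises, and they were not tested.

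**Figure D4:**
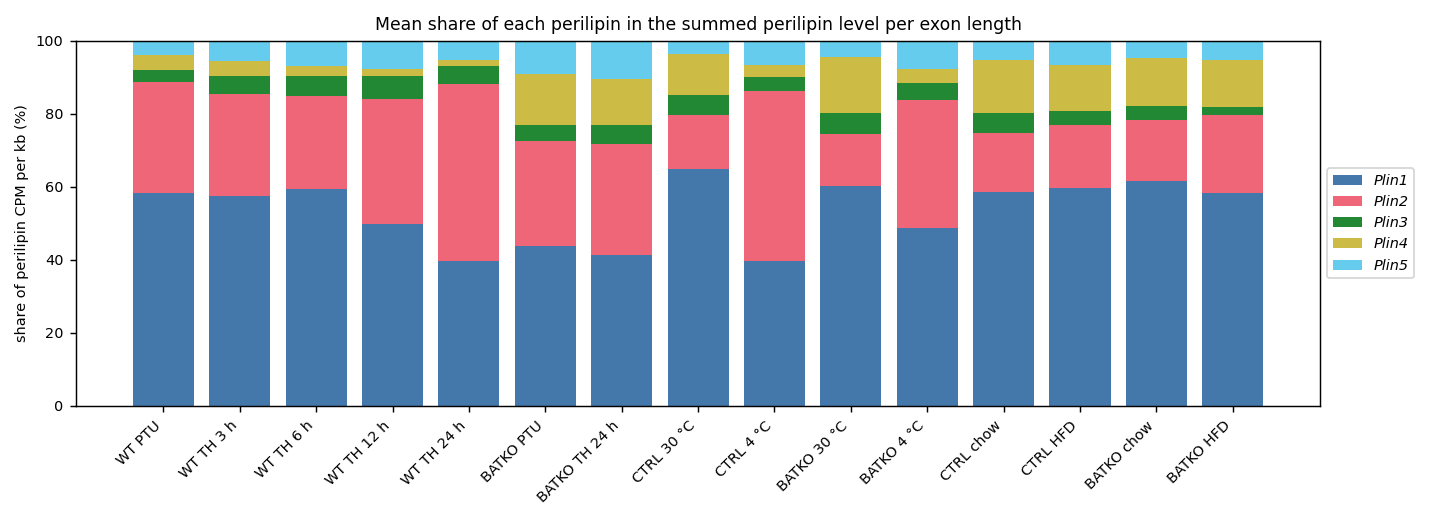
Mean share of each perilipin in the summed perilipin level (CPM per kilobase of exon, in %, stacked to 100) in the 15 groups. Plin1 and Plin2 fill most of each bar. Plin2 has the largest mean share, though not in every mouse, in WT mice 24 h after TH (48.6%) and in CTRL mice at 4 °C (46.7%). Plin4 is a thin band in WT mice of the TH experiment and in both genotypes at 4 °C.

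Other droplet genes were read from lists, whose counts stand beside 17.2% of all genes higher and 15.5% lower at 24 h after TH in WT mice. At 24 h after TH in WT mice, 2 of 11 genes of droplet formation were higher (Dgat2, the triglyceride-making enzyme, log2 fold change 0.57, and Pcyt1a 0.35) and 3 lower (Tmem159, Dgat1 -1.10 and Bscl2, the seipin of droplet budding, -0.72). Of 6 genes of droplet lipolysis, Hilpda, an inhibitor of the lipase Pnpla2, was higher (1.66), and the lipase activator Abhd5 (-1.21) and the hormone-sensitive lipase Lipe (-0.60) were lower. Of 15 other droplet proteins tested, 3 were higher (Vps13d 0.38 and Spg20 0.36 the most) and 5 lower (the caveola genes Cav1 -1.19 and Cavin1 -0.77 the most). Of 12 regulators known for these genes, 4 were higher, with Klf9, a TH target, at 1.31 and Ppard at 1.26, and 3 lower, with Ppara at -1.16 and Cebpa at -0.95. In BATKO mice 24 h after TH, 0 genes of these lists were called by edgeR or DESeq2, and 4 (Klf9, Fitm2, Lipe and Cav1) had an unadjusted p under 0.05.

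In the cold, where 49.1% of all genes were called and 26.5% were higher, CTRL mice had 6 of 11 formation genes higher (Agpat2, which makes phosphatidic acid, 3.83, and Bscl2 1.84 the most) and 1 lower (Tmem159 -1.48). Of the lipolysis genes 3 of 6 were higher (Mgll, the monoglyceride lipase, 2.05, Abhd5 1.73 and G0s2) and 0 lower. Of the other droplet proteins 8 of 15 were higher (Clstn3 3.61 and Ldah 1.35 the most) and 3 lower (Spg20 -1.34 and Snap23 -0.69 the most). Of the regulators 5 of 12 were higher (the coactivator Ppargc1a 2.57 and Esrra 1.96 the most) and Ppara was lower (-1.16). On HFD, where 3.94% of all genes were called, CTRL mice had 1 of 6 lipolysis genes higher (Mgll 0.68), 1 of 15 other droplet proteins higher (Clstn3 1.14), and of 12 regulators 2 higher (Prdm16 0.96 and Pparg 0.43) and 2 lower (Cebpb -0.83 and Ppara -0.52). Of the 11 formation genes edgeR called 0.

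Over the 59 mice, with each gene centred on its mean in its table, 7 of the 8 genes were compared with each other. Cideb, counted too rarely, was left out. The log2 levels of Plin1 and Cidec (r = 0.79), Cidea and Cidec (r = 0.79) and Plin1 and Cidea (r = 0.78) rose and fell together, as did those of Plin2 and Plin5 (r = 0.71). Plin4 did not go with Plin1 (r = 0.00) or Cidea (r = -0.24). These Pearson correlations describe mice that share groups and tables and carry no test. Among 8483 genes with a mean normalised count above 50 in every table, those most like each of the 7 by the same measure were Acsl1 (r = 0.885) and Gm45187 (r = 0.862) for Plin1, Aldoa (r = 0.904) and Hspb8 (r = 0.898) for Plin2, Ap5s1 (r = 0.690) and Gm12251 (r = 0.685) for Plin3, Cavin1 (r = 0.889) and Esyt1 (r = 0.877) for Plin4, Pex14 (r = 0.889) and Rmdn3 (r = 0.886) for Plin5, Swi5 (r = 0.881) and Bscl2 (r = 0.879) for Cidea and Acsl1 (r = 0.868) for Cidec. Acsl1, which activates long-chain fatty acids, was thus nearest to both Plin1 and Cidec. With Spearman's rho 7 of the 14 names were kept, and after centring on group means 0 were.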

How the data were processed

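Libraries were prepared from total BAT RNA (Trizol, Lexogen kit) of 59 mice. Reads were aligned by the authors to GRCm38 (mm10) with Bowtie (Bowtie2 2.3.2.2 in the submitters' processing notes), those of low alignment quality were removed, and raw counts per gene from htseqcount were deposited without normalization. The annotation and strand setting are not given in the sources used here.

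Each column was matched to a mouse by its label (0 left over). Counts were tested in R 4.3.3 with the quasi-likelihood test of edgeR 4.0.16 after TMM normalization, for genes with a mean normalised count above 10, with Benjamini-Hochberg adjustment over all genes tested, a threshold of 0.05 and no fold threshold. Separate fits covered the 20 WT mice, all 30 TH mice, 16 temperature mice and 13 diet mice. Labels do not say how mice were housed or processed. The p-values set each difference against the spread between these mice and do not cover a housing or processing difference between groups. No library was a copy of another in its group over 91 pairs (lowest chi-square per degree of freedom 6.81).

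Named besides the 8 genes are, of each list, at most 2 genes in each direction with the largest called change at TH 24 h, in CTRL cold and on CTRL HFD, and the 2 genes most like each member but Cideb (1 of these 14 names is not reported here); others (Nop9, markers, genes behind small counts) were chosen after their values were seen. Members and lists were chosen with earlier results of these data known. Alternatives were DESeq2 1.42.0, RLE factors, no filter or a mean count above 50, mitochondrial genes left out of library sizes, fits of other mice, each mouse left out in turn, and, chosen after seeing the data, fits without muscle-rich mice and of 6 mice without the number. Positions are from GENCODE, promoters from RefSeq.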

Additional observations from a re-analysis of the deposited data

Results flagged for a closer look

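A single mouse stood apart from the others of its group, by the gap to its nearest neighbour over the range of the group, in 4 of 96 pairs of a gene and a group of at least 4 mice; the groups of 2 or 3 mice were not checked. Chance alone gives about 1 in 20. Cideb was at 1.96 CPM in BATKO mouse 8 after TH, against 4.64 to 5.48 CPM in the other 4. Plin2 was at 185 CPM in BATKO PTU mouse 11, against 335 to 391 CPM, and at 269 CPM in WT mouse 20 at 12 h, against 309.6 to 316 CPM. Plin5 was at 35.7 CPM in WT PTU mouse 3, against 34.2 to 34.4 CPM, a gap of small size.

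The response to 24 h of TH differed between BATKO and WT mice for 5 of the 8 genes by the interaction term of edgeR, against 12.3% of all genes. On the log2 scale, BATKO minus WT, the differences were 1.98 for Cidec (adjusted p = 7.77e-05), 1.44 for Plin4 (adjusted p = 0.00711), 0.82 for Cidea (adjusted p = 0.00226), 0.75 for Plin1 (adjusted p = 0.0102) and -1.49 for Cideb (adjusted p = 0.0243). The Cideb call was lost in 1 of 18 fits with 1 mouse left out. The levels of these 5 genes already differed between BATKO PTU and WT PTU mice, as given above.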

How the results depend on the processing

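Of the counts of the 8 genes called in each comparison, those at WT 24 h (5), in CTRL cold (6), in the BATKO hormone response (0) and at 3 h (0) were the same under every alternative run. No called value changed direction; some uncalled values near 0 did. From 3 to 6 h, DESeq2, no filter on low counts and a fit of only the groups compared each gave 1 in place of 0 (Plin4). From 6 to 12 h, DESeq2 gave 2 (Cidec added) and no filter 3 (Cidec and Plin4 added), in place of 1. For CTRL HFD, DESeq2 gave 1, no filter 1 and the fit without muscle-rich mice 2, in place of 0, and that fit gave 3 in place of 7 for BATKO cold. On HFD, no filter gave 1 genotype difference (Plin3) in place of 0. Smaller shifts were 4 in place of 5 at 6 h (no filter, all 30 mice, or without muscle-rich mice; 6 with only the groups compared), 4 in place of 5 at 12 h (all 30 mice), 3 in place of 4 from 12 to 24 h (no filter, all 30 mice, only the groups compared, or without muscle-rich mice) and 7 in place of 6 for BATKO PTU against WT PTU (no filter). The cause of these changes was not tested.

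With each mouse left out in turn, the counts were 3 to 5 at 6 h (3 without WT PTU mouse 4 or 5, or 6 h mouse 17), 3 to 5 at 12 h (3 without WT PTU mouse 5), 0 to 1 from 3 to 6 h (1 without 3 h mouse 11), 1 to 2 from 6 to 12 h (2 without 12 h mouse 20), 3 to 4 from 12 to 24 h, 4 to 5 for the hormone and genotype interaction, 6 to 7 for BATKO PTU against WT PTU (Plin2 gained, and Cideb lost without WT PTU mouse 4), 0 to 1 for the cold and genotype interaction (1 without CTRL 30 °C mouse 22) and 0 to 2 for CTRL HFD (2 without CTRL chow mouse 3). Over single genes, 23 calls were lost and 10 gained in this way, and 12 lost and 13 gained under the other alternatives.

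Numbers 2, 3 and 4 recur between BATKO PTU and WT PTU mice. Their deviations correlated at 0.17, -0.44 and -0.11, so the numbers were not taken as a pairing. With the number as a replicate block in these 6 mice, 6 of the 8 genes and 9148 of all 14594 genes tested were called. In the same mice without it, 6 of the 8 and 9685 of the 14594 were.

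The 2 to 5 mice per group limit what can be called, with the fewest mice in BATKO chow (2), and Cideb rests on 14 to 112 reads.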
